A study of Mus musculus with 4 samples.

Results

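Stretches of the mouse genome where total histone H3 was read at a normal level in embryonic stem (ES) cells but at a low level in both differentiated lines were collected in bins of 5 kb. A bin was taken when the 2 ES libraries together held 40 or more distinct read positions there and when each differentiated line had at most 0.35 times the mean ES share of its autosomal positions. The rule took 140 of 391122 autosomal bins that reached the ES minimum, out of 469391 autosomal bins with any position. Touching bins were joined into 111 regions. The study sequenced chromatin precipitated with the anti-H3 antibody AB1791 (ChIP-seq) in 4 libraries, 1 per group. The groups were C2C12 myotubes after 48 h of differentiation, 38B9 pro-B cells in normal culture, V6.5 ES cells (background C57BL/6-129) under 10 uM SB431542 for 24 h, and V6.5 ES cells in normal culture. SB431542 blocks signalling through receptors of the TGF-beta family. Both ES cultures had been passaged off their feeder fibroblasts, each differentiated group is 1 established line, and no input library was used here.

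H3 is a core histone of the nucleosome and covers nearly the whole genome, so that reads from an H3 precipitation follow the amount of DNA as well as the nucleosomes per DNA copy. A sequence that a cell line lacks gives no reads there. The mouse reference genome comes from C57BL/6J, and other inbred strains lack some of its sequence or carry gene clusters in other copy numbers. V6.5 cells have 1 parental genome from C57BL/6 and 1 from a 129 strain. C2C12 was derived from a C3H mouse, and the strain of 38B9 is not given in the sources used here. Without an input library, the number of DNA copies and the H3 on each of them cannot be told apart in any value below.

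The myotube, pro-B, SB431542 and untreated ES libraries held 12432118, 13015879, 13469179 and 13132855 distinct autosomal positions of reads with 1 reported place. The median autosomal bin held 27, 26, 30 and 29 of them. With 1 library per group no test between conditions exists and no difference has a replicate check. Intervals are at the 95% level and stand for counting error alone, because amplified reads that carry no molecular identifier need not be independent. Per the file headers the SB431542 library was sequenced in a run of its own, so that treatment and run cannot be told apart. Cell types were not checked against marker genes, because gene coordinates of the build of the files (mm8) were not used here.

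By the rule of 0.35 times the mean ES share, 967 bins were low in myotubes (0.247% of those tested) and 1765 in pro-B cells (0.451%), and 140 (0.0358%) were low in both. Both lines are set against the same ES libraries, and these counts describe the choice and are no finding. The 140 bins held 548 positions in myotubes and 531 in pro-B cells, against 4455 in SB431542-treated and 4276 in untreated ES cells. The median bin stood at 0.0527 times the mean ES share in myotubes and at 0.0511 times in pro-B cells. Over all tested bins the medians were 0.985 in myotubes and 0.933 in pro-B cells. Just inside the limit, the 3 bins with the highest value in either line were at 0.346, 0.347 and 0.348 times, and just outside it the nearest 3 bins were at 0.35001, 0.351 and 0.353. The ES minimum also cut through a continuum, with 30 chosen bins at 40 to 44 ES positions and 45 bins at 35 to 39 that met both ratios but were not taken.

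The bins were spread unevenly over the allowed range. In 48 bins both lines held 0 positions, in 10 more only the myotube library did and in another 10 only the pro-B library did. The higher of the 2 line ratios was above 0 and up to 0.1 in 21 bins, between 0.1 and 0.2 in 15, between 0.2 and 0.3 in 27 and above 0.3 in 29. Thus many bins were empty in both lines, and many others lay close to the limit. Summed over the bins, myotubes had 1.08 times the share of pro-B cells. Among the bins, 57 were higher in myotubes, 35 were higher in pro-B cells and 48 were at 0 in both. The rule had capped both lines, so that these values describe the choice. Over all tested bins the median ratio to ES cells was also higher in myotubes (0.985) than in pro-B cells (0.933).

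**Figure D1:**
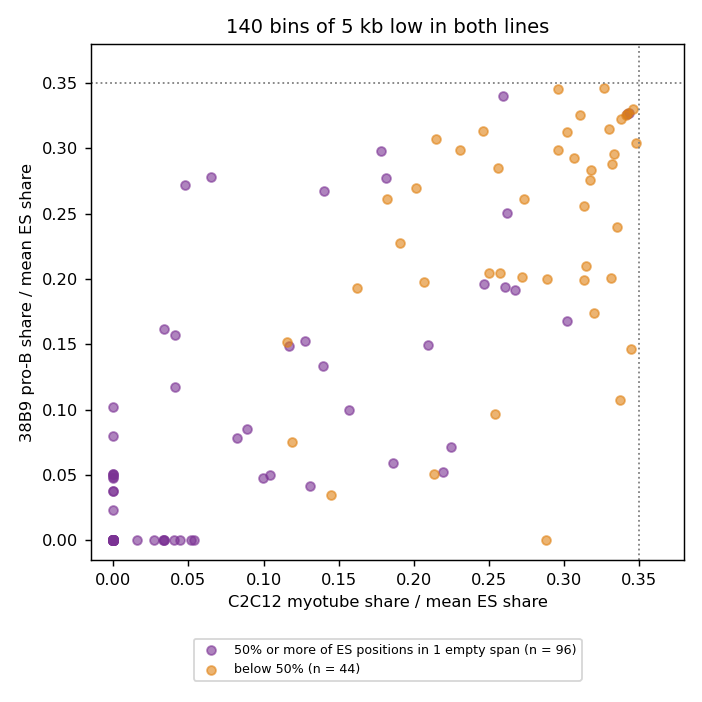
Share of autosomal H3 positions in C2C12 myotubes (x axis) and 38B9 pro-B cells (y axis), each over the mean share of the ES libraries, for the 140 chosen 5 kb bins. Dotted lines mark the limit of 0.35, and colour shows whether 50% or more of a bin's ES positions lie in 1 stretch without a position in either line. The 48 bins at 0 in both lines fall on 1 point at the origin, and a second group lies near the limit.

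Levels were also set against the median autosomal bin of each library, which does not use the ES libraries for the differentiated lines. The median of the chosen bins was 0.0370 in myotubes and 0.0385 in pro-B cells. The mean level of the ES libraries had a median of 0.897 over the chosen bins, with quartiles of 0.779 and 1.15. The lowest was 0.675, which the ES minimum sets. Over all tested bins the median ES level was 1.07. ES levels of 1.5 or more were found in 12 of the 140 bins (8.57%), against 4.25% of all tested bins. With 1 exception, described further on, no chosen bin exceeded 0.630 of the median bin in myotubes or 0.731 in pro-B cells.

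**Figure D2:**
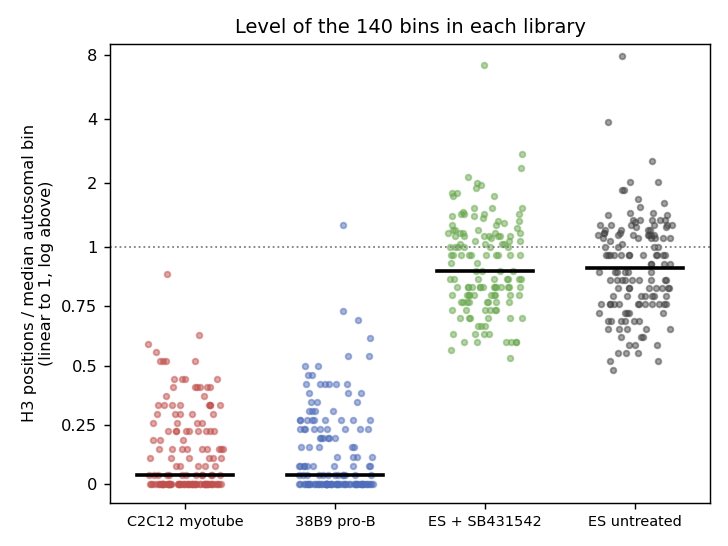
Distinct H3 positions of the 140 chosen bins in each library, divided by that library's median autosomal bin (y axis, linear up to 1 and logarithmic above). Points are bins, thick lines are medians and the dotted line marks the median autosomal bin. Both differentiated lines have medians below 0.04, and the ES libraries spread around 0.9.

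The bins were chosen by their counts, and the position of the reads inside them was not used. For each bin the stretch without a position in either line that held most of the bin's ES positions was located. It held 50% or more of those positions in 96 bins and all of them in 51. In the remaining 44 bins the reads of the lines left no such stretch. With at least 20 ES positions required inside, 70 such empty stretches were found, from 0.639 to 389 kb long with a median of 9.20 kb. Together they held 6985 ES positions. Parts of a stretch can also be empty in ES cells, as where sequence cannot be placed. Its length is thus not the length over which only the lines were without positions.

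The ends of these empty stretches could be set side by side in the 2 lines. Distinct autosomal positions were 198 bp apart on average in myotubes and 189 bp in pro-B cells, so that an end can be placed only to about that distance. Of the 70 stretches, 19 had both ends within 500 bp of each other in the 2 lines, and 12 had both within 200 bp. At least 1 end was that close, within 500 bp, in 36 stretches. The median of the larger end difference over the 19 was 191 bp. These 19 stretches ran from 0.639 to 33.6 kb, with a median of 5.13 kb. In the 10 kb on each side, the lines had a median of 1.06 (myotube) and 0.884 (pro-B) times the mean ES share, and in 15 of the 19 both were above 0.7. Stretches were defined on both lines pooled, so an end is set by whichever line has the nearer read, and the choice of the 19 by their ends asks for reads of both lines close by. Over all 70 stretches the flanks had a median of 0.494 times the mean ES share in each line. Some of the 70 are pieces of a longer stretch, parted by a single position. On chromosome 4, stretches from 121530697 to 121544654, from 121544656 to 121604374 and from 121604376 to 121992917 follow each other in this way. The flanks of these pieces are nearly empty too, at 0.0114, 0.0101 and 0.0233 times in myotubes. The 70 are thus not separate places, and such pieces lower their median flank level.

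The longest of the 19 lay on chromosome 6 from 132596004 to 132629602 (33.6 kb). It held 0 positions in myotubes and 0 in pro-B cells, against 165 in SB431542-treated and 154 in untreated ES cells. The lines differed by 240 bp at the left end and 102 bp at the right end. In the flanks myotubes held 130 positions and pro-B cells 116, against 109 in SB431542-treated and 135 in untreated ES cells. The lines thus had no reads inside and about the level of ES cells on either side. The ES libraries were themselves without reads over several kb of the left side of the stretch.

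On chromosome 2 from 85931733 to 85947512 (15.8 kb), myotubes and pro-B cells again held 0 positions, against 72 in SB431542-treated and 75 in untreated ES cells, with ends 27 and 55 bp apart in the lines. On chromosome 15 from 65123999 to 65131836 (7.84 kb), the lines held 0, against 51 in SB431542-treated and 45 in untreated ES cells, and the ends of the 2 lines lay 4 and 198 bp apart. On chromosome 1 from 187720527 to 187725770 (5.24 kb), SB431542-treated cells held 29 and untreated ES cells 37, with ends 106 and 86 bp apart, and both lines again held 0. All 3 had flank levels in both lines of at least 0.884 times the mean ES share. Short stretches of this kind also lay on chromosome 2 from 80254391 to 80258443, with ends 12 and 15 bp apart, and on chromosome 3 from 6740030 to 6745264, with ends 193 and 1 bp apart. Both were at 0 in both lines. In the first, SB431542-treated cells held 21 positions and untreated ES cells 18, and in the second they held 30 and untreated ES cells 22.

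**Figure D3:**
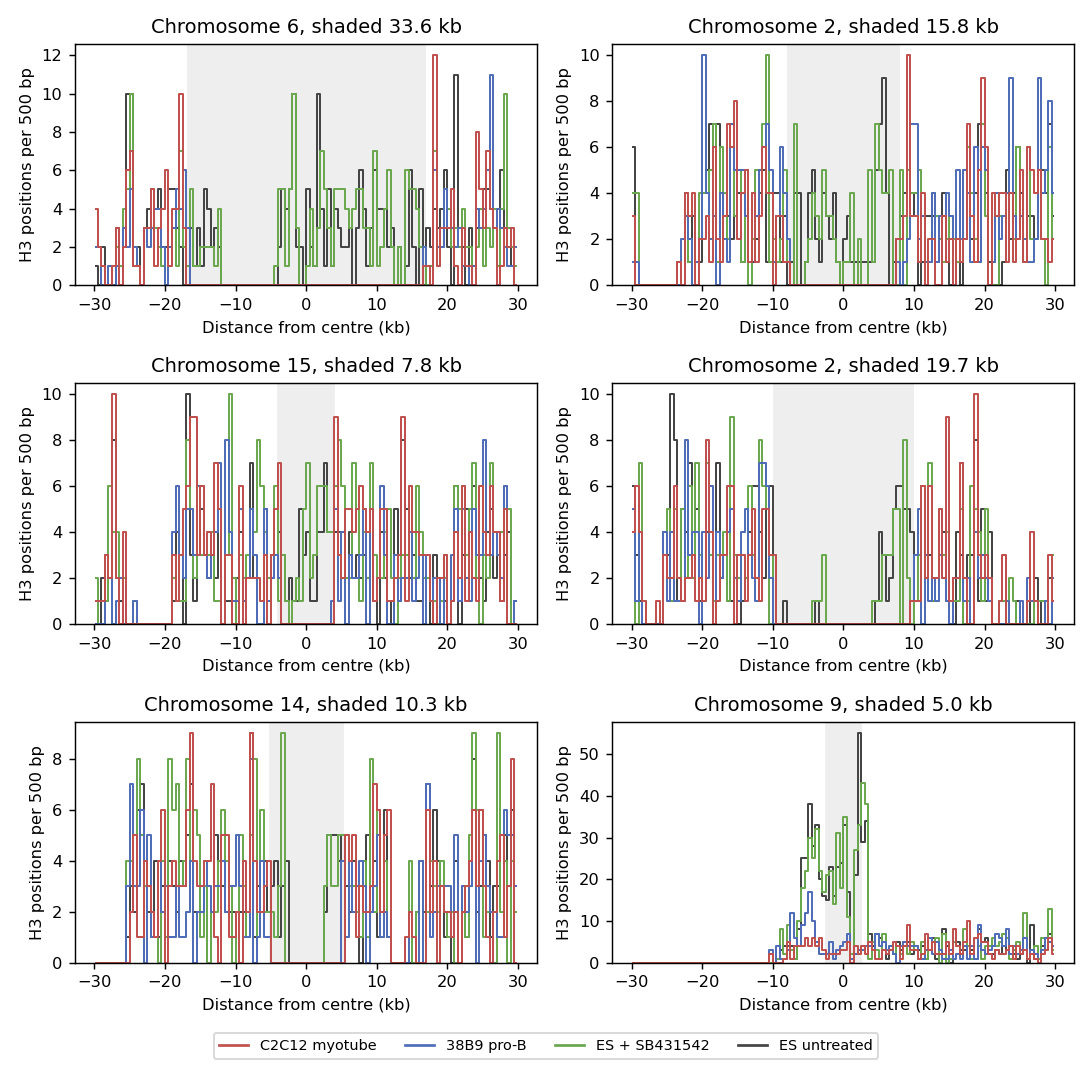
Distinct H3 positions per 500 bp (y axis) in the 4 libraries against the distance from the centre in kb (x axis), for the 5 empty stretches with matching ends that held most ES positions and for the chosen bin with the highest ES count (chromosome 9, last panel). Grey marks the stretch or the bin. In the first 5 panels the myotube and pro-B lines are at 0 across the grey area and return beside it, and in the last panel the ES libraries rise far above both lines.

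The density of ES positions inside the 19 stretches was compared with that in their own flanks. It ranged from 0.334 to 4.86 times, with a median of 0.800, and 13 lay between 0.6 and 1.2. Over all 70 stretches the median was 1.09. The ES minimum of the choice bears on these values. A single stretch was lower, on chromosome 2 from 99159325 to 99179012 at 0.334, where 38 SB431542 and 43 untreated ES positions lay in 19.7 kb. The ES minimum of the rule lies at 0.675 of the median bin. A sequence on 1 of 2 parental genomes would be near 0.5 at equal H3 per copy, and most such bins are left out. Below that minimum, bins empty in both lines were more frequent. They made up 0.613% of bins with 10 to 19 ES positions (89 of 14514), 0.376% of those with 20 to 29 (64 of 17035) and 0.119% of those with 30 to 39 (32 of 26869). The share was 0.0424% at 40 to 49 (24 of 56610), 0.00782% at 50 to 59 (8 of 102351), 0.00701% at 60 to 79 (13 of 185325) and 0.00641% at 80 or more (3 of 46836). Fewer ES positions by themselves make a count of 0 in the lines more likely, and bins with few uniquely placed bases fall in the lower classes too. These shares are thus no test of copy number, which was not tested.

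Bins low in both lines were clustered. Joined across gaps of up to 250 kb, 11 loci held 3 or more bins and together 71 of the 140. Chromosomes 4, 6 and 8 held 32, 25 and 22 bins, or 79 in all. In that order these were 0.133%, 0.106% and 0.0995% of the tested bins of each chromosome, against 0.0358% of all tested bins. Chromosomes 10, 16, 17 and 18 held none. Of the 111 regions of touching bins, 93 were single bins, 10 had 2 bins, 5 had 3 and 3 had 4.

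The locus with most bins lay on chromosome 4 from 121470001 to 121645000 (175 kb) with 17 bins. Its whole length held 2 positions in myotubes and 5 in pro-B cells, against 700 in SB431542-treated and 629 in untreated ES cells. Both lines were empty or nearly so along all of it. The 18 bins of the locus outside the choice, which had too few ES positions, held 1 position in myotubes and 3 in pro-B cells, against 175 in SB431542-treated and 168 in untreated ES cells. The region of 4 touching bins from 121540001 to 121560000 had 0 positions in myotubes and 1 in pro-B cells, against 140 in SB431542-treated and 138 in untreated ES cells. A count of 3 in myotubes would stand at 0.0231 times the mean ES share, and the pro-B value was 0.00735 times (0.000185 to 0.0413). Here the lines had next to no reads where ES cells were slightly above the median bin. From 121580001 to 121595000 both lines had 0 positions, against 75 in SB431542-treated and 70 in untreated ES cells. A count of 3 would stand at 0.0443 times in myotubes and 0.0423 in pro-B cells. From 121600001 to 121615000 there was 1 position in myotubes and 0 in pro-B cells, against 90 in SB431542-treated and 77 in untreated ES cells.

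Empty stretches of this locus reached past the chosen bins. One ran from 121236880 to 121495641 (259 kb) and another from 121604376 to 121992917 (389 kb), each without a position in either line. The first held 83 positions in SB431542-treated and 97 in untreated ES cells, and the second 170 in SB431542-treated and 142 in untreated ES cells. ES density in them was low, at 0.290 and 0.175 times that of the flanks. Reads with 2 reported places gave 16 lines for myotubes and 26 for pro-B cells over the first stretch, against 414 in SB431542-treated and 391 in untreated ES cells. In the second, myotubes had 22 such lines and pro-B cells 24, against 867 in SB431542-treated and 832 in untreated ES cells. The sequence that can be read only with 2 places was thus also low in both lines.

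Proximal to it on the same chromosome lay 2 further loci. From 111585001 to 111945000 (360 kb, 5 chosen bins) myotubes held 6 positions and pro-B cells 7, against 758 in SB431542-treated and 714 in untreated ES cells. In its 67 bins outside the choice myotubes stood at 0.0103 times and pro-B cells at 0.00985 times the mean ES share. The low level thus held between the chosen bins as well. From 113065001 to 113385000 (320 kb, 9 chosen bins) the reduction was less complete, with 163 positions in myotubes and 143 in pro-B cells, against 812 in SB431542-treated and 779 in untreated ES cells. The chosen bins there were at 0.159 times in myotubes and 0.0981 times in pro-B cells, and the other 55 bins at 0.241 times in myotubes and 0.214 times in pro-B cells. Its 2-place lines numbered 168 in myotubes and 145 in pro-B cells, against 562 in SB431542-treated and 546 in untreated ES cells.

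Distal chromosome 6, which in the mouse carries the natural killer gene complex and clusters of taste receptor genes, held 3 loci. Such families of immune and sensory receptors are known to differ in gene number between strains, but the bins were not set against gene positions. From 129980001 to 130030000 (50 kb, 6 bins) myotubes held 7 positions and pro-B cells 4, against 203 in SB431542-treated and 201 in untreated ES cells. Its 2-place lines numbered 38 in myotubes and 57 in pro-B cells, against 139 in SB431542-treated and 155 in untreated ES cells. From 131795001 to 132025000 (230 kb, 13 bins) the chosen bins held 6 positions in myotubes and 10 in pro-B cells, against 298 in SB431542-treated and 307 in untreated ES cells. The 33 bins between them were split into 2 groups by place. The 14 other bins from 131800001 to 131915000 held 25 positions in myotubes and 24 in pro-B cells, against 163 in SB431542-treated and 148 in untreated ES cells. The 19 bins from 131925001 to 132020000 held 283 in myotubes and 273 in pro-B cells, against 365 in SB431542-treated and 331 in untreated ES cells. A block with many reads in both lines thus parted the last chosen bin from the others. Its first part, up to 131943429, held no position in either line. The third, from 132610001 to 132630000, is the 4-bin region over the longest of the 19 stretches described above, with 2 positions in myotubes and 2 in pro-B cells, against 133 in SB431542-treated and 121 in untreated ES cells. A stretch of 4.50 kb in the second locus, from 132019894 to 132024394, was also among the 19, with ends 136 and 79 bp apart and flanks at 1.202 times in myotubes and 1.11 times in pro-B cells. The 7 further regions of 2 or more bins on chromosomes 4 and 6 lay inside these loci, with the highest line ratios from 113230001 to 113240000 on chromosome 4, at 0.208 times in myotubes and 0.199 times in pro-B cells.

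Other regions of 2 or more bins were found on chromosomes 2, 8, 11, 13, 15 and 19. On chromosome 11 from 116565001 to 116575000, myotubes held 1 position and pro-B cells 0, against 142 in SB431542-treated and 186 in untreated ES cells. This region had the highest ES level of all regions of touching bins, 2.79 times the median bin. The 2 lines were at 0.00651 times the mean ES share (0.000164 to 0.0365) in myotubes and, with a count of 3, at 0.0187 times in pro-B cells. The bin from 116580001 to 116585000 had 0 positions in both lines, against 20 in SB431542-treated and 25 in untreated ES cells. Its 2-place lines numbered 12 in myotubes and 24 in pro-B cells, against 83 in SB431542-treated and 93 in untreated ES cells, so that most reads of ES cells there had 2 places.

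On chromosome 19 from 9245001 to 9310000 (65 kb, 4 chosen bins), the whole length held 2 positions in myotubes and 4 in pro-B cells, against 236 in SB431542-treated and 240 in untreated ES cells. Within it the 2 touching bins from 9245001 to 9255000 held 2 in each line, against 76 in each ES library. The low level reached over the whole locus. On chromosome 2 from 153760001 to 153775000, 3 bins held 3 positions in myotubes and 4 in pro-B cells, against 85 in SB431542-treated and 83 in untreated ES cells. On chromosome 13 from 85290001 to 85300000, 2 bins held 2 in myotubes and 0 in pro-B cells, against 73 in SB431542-treated and 55 in untreated ES cells. On chromosome 15 from 61775001 to 61785000, 2 bins held 4 in myotubes and 1 in pro-B cells, against 50 in SB431542-treated and 58 in untreated ES cells. In each of these the counts of both lines lay far below both ES counts, with line ratios of at most 0.0792. On chromosome 8 from 66205001 to 66220000, 3 bins held 16 positions in each line, against 115 in SB431542-treated and 117 in untreated ES cells. All positions of the lines fell in the third bin. The empty part ran on for 18.1 kb, and the ends in the lines lay 1630 and 237 bp apart.

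The 44 bins without a dominant empty stretch had a median ratio of 0.299 in myotubes and 0.261 in pro-B cells, and the other 96 had medians of 0 in both lines. The split itself brings this about, since a bin at 0 in both lines always falls among the 96. Of the 44, 40 were single bins and 23 (52.3%) lay on chromosomes 7 and 8, which held 10.9% of all tested bins and 7.29% of the 96. Chromosome 7 as a whole was at 0.761 times the mean ES share in myotubes and 0.964 times in pro-B cells. Chromosome 8 was at 0.951 times in myotubes and 0.748 times in pro-B cells. When each library was scaled to its own total on the same chromosome, 29 of the 44 bins and 92 of the 96 still met the rule. The 10 kb on each side of the 44 bins stood at 0.624 times in myotubes and 0.595 times in pro-B cells. Beside the 96 bins they were lower still, at 0.423 times in myotubes and 0.382 times in pro-B cells. The fullest 500 bp held a median of 20.9% of a bin's ES positions in the 44 bins, against 20.7% in the 96 bins and 18.5% in all tested bins.

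**Figure D4:**
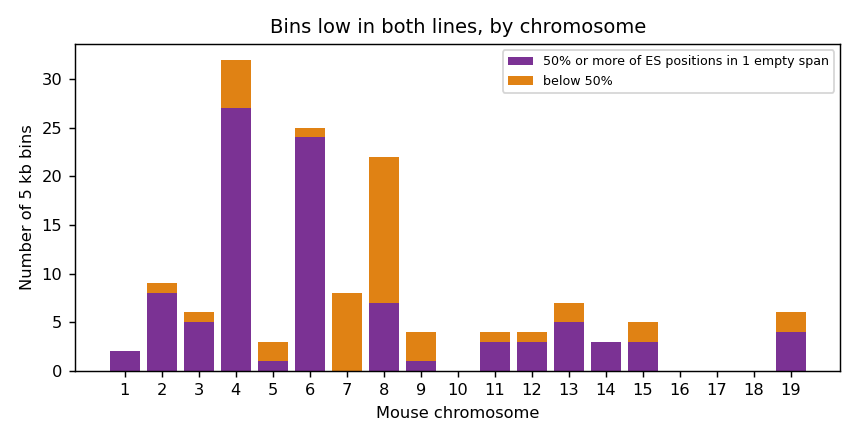
Number of chosen 5 kb bins (y axis) on each autosome (x axis), split by whether 50% or more of a bin's ES positions lie in 1 stretch without a position in either line. Chromosomes 4 and 6 hold mostly bins of the first kind, and all 8 bins of chromosome 7 are of the second kind.

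The single bins with most ES positions were of the second kind. On chromosome 8 from 128580001 to 128585000 myotubes held 14 positions and pro-B cells 19, against 71 in SB431542-treated and 59 in untreated ES cells. It belonged to a locus from 128520001 to 128910000 in which the 74 bins outside the choice were at 0.591 times in myotubes and 0.543 times in pro-B cells. On chromosome 5 from 78355001 to 78360000 the counts were 17 in myotubes and 18 in pro-B cells, against 64 in SB431542-treated and 59 in untreated ES cells. On chromosome 8 from 77865001 to 77870000 they were 15 in myotubes and 14 in pro-B cells, against 54 in SB431542-treated and 47 in untreated ES cells. Counts in the lines were moderate in all of these. On chromosome 8 from 14295001 to 14300000 they were 14 in myotubes and 12 in pro-B cells, against 59 in SB431542-treated and 37 in untreated ES cells. In these 4 bins the ES level was 1.62 to 2.20 times the median bin and the lines stood at 0.462 to 0.731 of theirs. All had reads in every library and a high ES level.

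The bin with the most ES positions stood apart from all others. On chromosome 9 from 123780001 to 123785000, myotubes held 24 positions and pro-B cells 33, against 214 in SB431542-treated and 229 in untreated ES cells. Against the median bin these are 0.889 in myotubes and 1.27 in pro-B cells, and 7.13 in SB431542-treated and 7.90 in untreated ES cells. The lines were thus near their median bin and the ES libraries far above theirs. The next bin on the left held 42 positions in myotubes and 79 in pro-B cells, against 180 in SB431542-treated and 198 in untreated ES cells. The next on the right held 29 in myotubes and 39 in pro-B cells, against 107 in SB431542-treated and 98 in untreated ES cells. From 123790001 to 123795000 the counts were close, with 37 in myotubes and 32 in pro-B cells, against 30 in SB431542-treated and 35 in untreated ES cells. On the left, the 2 bins from 123760001 to 123770000 held 0 positions in every library.

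Reads with 2 reported places were not used by the rule and are listed at both of their places. Where both places lie in the summed bins or stretches, 1 read counts as 2 lines. The intervals of 2-place lines can then be too narrow. In the chosen bins myotubes had 302 such lines and pro-B cells 277, against 704 in SB431542-treated and 659 in untreated ES cells. Scaled to the autosomal 2-place lines, this was 0.488 times the mean ES share in myotubes (0.429 to 0.553) and 0.428 times in pro-B cells (0.375 to 0.488). The 2-place reads were thus lower in both lines as well, but less so than the reads with 1 place, which by the choice stood at 0.134 times in myotubes and 0.124 times in pro-B cells over the same bins. In the 96 bins with a dominant empty stretch the values were 0.440 times in myotubes (0.377 to 0.512) and 0.402 times in pro-B cells (0.343 to 0.469). In the other 44 they were 0.632 times in myotubes (0.4996 to 0.793) and 0.506 times in pro-B cells (0.392 to 0.645). Over all 70 empty stretches they were 0.213 times in myotubes (0.191 to 0.236) and 0.176 times in pro-B cells (0.157 to 0.197). Of the 2021 SB431542 lines in the 70, the 2 long chromosome 4 stretches described above gave 414 and 867. They gave 391 and 832 of the 1925 untreated ES lines. Of the 381 myotube lines they gave only 16 and 22, and of the 330 pro-B lines 26 and 24. These 2 stretches thus lower the pooled ratios of the 70. In the 19 stretches with matching ends, 2-place lines numbered 40 in myotubes and 26 in pro-B cells, against 55 in SB431542-treated and 50 in untreated ES cells. This was 0.839 times the mean ES share in myotubes (0.568 to 1.22), an interval that includes 1, and 0.522 times in pro-B cells (0.326 to 0.808). The chromosome 2 stretch from 85931733 alone gave 25 of these lines in myotubes, 13 in pro-B cells, 35 in SB431542-treated and 25 in untreated ES cells. The pooled ratios thus rest largely on 1 stretch. Single stretches could be level with ES cells, as on chromosome 15 from 77309232 to 77322884, which held 107 such lines in myotubes and 72 in pro-B cells, against 96 in SB431542-treated and 103 in untreated ES cells. A 2-place read can come from either of its places, so that its lines do not show which of them was read.

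The bins were rich in 2-place reads in ES cells. In 61 of the 140 (43.6%) the ES libraries together had 5 or more 2-place lines, against 10.9% of all tested bins, and in 44 (31.4%) they had 10 or more, against 3.49%. In the ES libraries there were 15.8 (SB431542) and 15.4 (untreated) such lines per 100 positions with 1 place, where all autosomes gave 6.04 (SB431542) and 5.97 (untreated). In 19 bins there was no 2-place line in any library, and of the 19 stretches with matching ends 8 had none in ES cells. The share of all tested bins without such a line is not given here, so that these counts are not read as few or many. Sequence with 2 places was thus frequent among the bins, and some of them gave no such line.

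**Figure D5:**
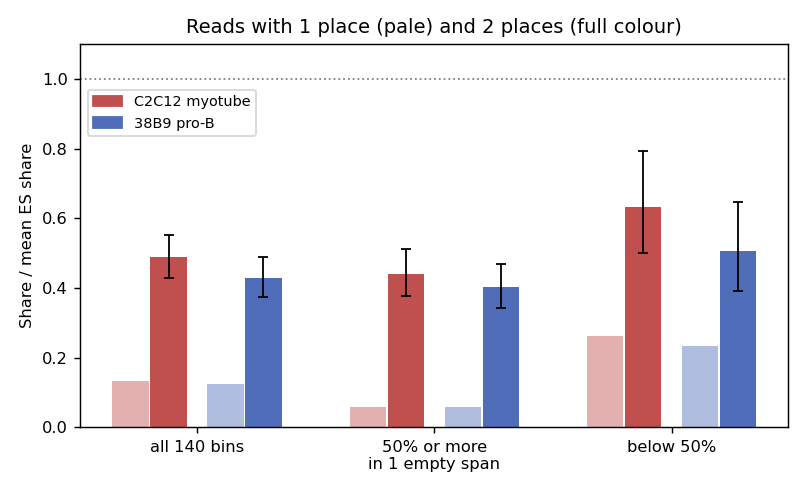
Share in C2C12 myotubes and 38B9 pro-B cells over the mean ES share (y axis) for reads with 1 place (pale bars, by which the bins were chosen) and with 2 places (full bars, with 95% counting intervals), in all 140 bins and in the bins with 50% or more and below 50% of ES positions in 1 empty stretch. The dotted line marks equality with the ES libraries. Bars for 2-place reads lie between 0.40 and 0.63, above the pale bars and below 1.

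The rule used the sum of the ES libraries and not their ratio. Over the 140 bins SB431542-treated cells had 1.02 times the untreated share (0.974 to 1.06), and in 2-place lines 1.03 times (0.924 to 1.15). The median bin was at 1.02 times, where all tested bins had a median of 1.003. The counting interval of this ratio excluded 1 in 7 of the 140 bins (5%), against 4.53% of all tested bins, so that the share was close to the background. Single bins ranged from 0.502 times on chromosome 7 from 39555001 (17 positions with SB431542 and 33 without) to 2.22 times on chromosome 8 from 61380001 (57 with SB431542 and 25 without). Of the 111 regions, 4 had an interval above 1 and 2 below it. Above were the bins from 121640001 on chromosome 4 (1.88 times, 1.16 to 3.11), from 132020001 on chromosome 6 (2.02 times, 1.03 to 4.14), from 14295001 on chromosome 8 (1.55 times, 1.01 to 2.41) and from 61380001 on chromosome 8 (1.37 to 3.71). Below were the chromosome 7 bin (0.262 to 0.928) and the chromosome 11 region from 116565001 to 116575000 (0.744 times, 0.594 to 0.931).

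The mirrored rule asked for bins low in both ES libraries. It required 40 or more positions in the 2 lines together and at most 0.35 times their mean share in each ES library, and it took 75 of 370531 bins (0.0202%). They formed 73 regions, so that nearly all were single bins. None of them was at 0 in both ES libraries, whereas 48 of the 140 bins were at 0 in both lines. The median ratio of the mirrored bins was 0.302 in SB431542-treated and 0.305 in untreated ES cells, close to the limit. On chromosomes 7, 8 and 15, which are shifted as a whole in 1 of the lines, lay 9 of the 75. These chromosomes held 20465, 22117 and 16953 of the 391122 bins tested by the main rule, so that no excess is read from the 9.

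DNA copies were not measured in any line, the strain of 38B9 was not given, and whether strain differences in copy number set these values was not tested. The empty bins and their ES level were chosen by the rule, and the matching ends by their distance, so that neither bears on that question as an independent value. The 2-place lines were not used by the rule but come from the same bins and stretches, so that they do not test that question either. They were low in both lines over the 140 bins as a whole and over the 70 empty stretches. Most ES lines of the 70 came from the long chromosome 4 stretches. In the 19 stretches the 2-place lines were low in pro-B cells but not clearly low in myotubes. A single stretch gave most of the myotube lines there.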

How the data were processed

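Chromatin was sheared, precipitated with anti-H3, amplified and sequenced, per the labels' protocols. Per the file headers, the authors aligned reads to mm8 with Bowtie, whose version was not found in the headers or labels (seed length 36, up to 2 seed mismatches, quality limit 70, at most 2 places). Each deposited file lists 1 signed position per read and place. Its second section was taken as reads with 2 places, both listed, from its name, the options and its even line counts.

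Here each position and strand was counted once and shares were taken of autosomal positions. Intervals are exact conditional binomial intervals. They take every position or line as an independent count, although each 2-place read gives 2 lines. For a count of 0, the ratio that 3 counts would make was given. Regions of 2 or more bins and the 5 single bins with most ES positions were to be named. The empty stretches and loci were chosen after their values were seen, and the bins and rules with earlier results of these data known. Python 3.11.15, numpy 2.4.6, scipy 1.17.1 and matplotlib 3.10.9 were used.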

Additional observations from a re-analysis of the deposited data

How the results depend on the processing

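Of 85 alternative values 59 stayed close (counts within 1.5 times, values within the counting interval or spread), 26 moved and none was labelled reversed. The limit set the number most, with 91 bins in 64 regions at 0.25 times and 1125 bins in 1046 regions at 0.5 times, where 2-place lines stood at 0.613 times in myotubes and 0.649 times in pro-B cells. An ES minimum of 20 positions gave 451 bins in 297 regions, a pro-B 2-place ratio of 0.500209 and a median ES level of 0.526. A minimum of 60 gave 54 bins in 47 regions, a myotube 2-place ratio of 0.589 and an ES level of 1.204. Bins of 10 kb with an ES minimum of 80 positions, 2 changes at once, gave 39 in 33 regions. When lines of both sections chose the bins there were 265 in 185 regions, with 2-place ratios of 0.214 in myotubes and 0.212 in pro-B cells, which the choice then sets. Without the SB431542 library the pro-B 2-place ratio was 0.496. SB431542 over untreated was then 0.863, below 1, where the main value was 1.02 (0.974 to 1.06). Without the untreated ES library there were 222 bins in 192 regions and that ratio was 1.24. Choosing on 1 ES library favours bins high in it, by construction. Without chromosomes 7, 8 and 15, an alternative added after seeing the data, the myotube 2-place ratio was 0.414. Of the 140 bins, 135 were also chosen from all reads, 127 with scaling to the median bin and 121 with scaling by chromosome. No paired analysis was possible because each group has 1 library. Depth limits the choice to bins near or above the median ES level.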
